A study of Caenorhabditis elegans with 8 samples.

Results

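A set of 42 genes that encode splicing factors of Caenorhabditis elegans was followed through adult life. The genes were chosen by gene symbol, and each of the 42 was found under its own symbol, with 1 probe of exactly 1 symbol, among 26128 genes measured in this way. They fall into 9 role groups: the Sm ring, recognition of the splice sites, the SF3 complexes of U2, the tri-snRNP, the Prp19 complex with later factors, DEAH helicases, SR proteins, general RNA-binding regulators, and tissue-specific regulators. RNA of whole animals of the wild-type N2 strain, aged as synchronized populations, was hybridised to Affymetrix Gene 1.1 ST arrays for C. elegans. All groups shared growth at 20 °C on OP50 bacteria and normal ageing, and how adults were kept apart from progeny is not stated in the labels. The groups were day 1 (3 arrays), day 6 (3 arrays) and day 12 (2 arrays) of adulthood. The labels name the replicates biological but say nothing of separate cultures, so p-values measure the spread between these arrays, which may in part be technical.

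Splicing removes introns in 2 chemical steps carried out by the spliceosome, a machine of small nuclear ribonucleoproteins (snRNPs) and helper proteins that is rebuilt on each intron. The U1 snRNP marks the 5′ splice site, branch point and 3′ splice site proteins mark the other end, the U2 snRNP takes over the branch point, and the tri-snRNP brings in the catalytic parts. SR proteins and other RNA-binding proteins decide which sites are used, and some of these regulators act in only a few tissues, such as neurons or muscle. In worms the Sm proteins also sit on the spliced leader snRNPs that add a common leader to many messages. Work in C. elegans has tied the branch point protein SFA-1 to the lifespan effect of dietary restriction.

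Median log2 signals of the arrays ran from 2.30 to 2.39, and no 2 arrays were identical. Each array correlated with every other array of its own day (r of at least 0.984 across probes) more closely than with any array of another day (r of at most 0.981). A day mean under 3 is treated here as dim, close to the floor of the signal, and among the 42 genes only unc-75 at day 1 was below it. Each value is 1 summary per gene, so it says nothing about which isoforms were made. Whole animals were extracted, so more or fewer cells of a type cannot be told apart from more or less RNA per cell. The labels give no batch, and a batch that followed the days could not be told apart from age.

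At day 12, 34 of the 42 splicing factor genes had a mean within 0.5 of their day 1 mean on the log2 scale, while 4 of the 5 tissue-specific regulators and 3 other genes rose by day 12. Between day 6 and day 1, 0 of 42 genes passed the limma test at an adjusted p under 0.05, where 3.85% of all 26761 tested probes did (2.18% higher and 1.66% lower). At an unadjusted p under 0.05 there were 3 higher and 0 lower. The share of all tested probes at this looser threshold was not counted. This and the later counts at an unadjusted p therefore cannot be told apart from the background. At day 12 against day 1, 7 genes rose and 0 fell, or 16.7%, against 14.1% of all tested probes (9.58% higher and 4.52% lower) and 31.4% of the 11117 probes with a mean above 3 on at least 1 day. The share of splicing factor genes called was thus near the background over all probes and below that over brighter probes. Among the 7 were unc-75, mec-8, exc-7, asd-1, sap-49 and sfa-1. At day 12 against day 6, 3 rose (unc-75, mec-8 and exc-7) and 0 fell, or 7.14%, against 9.05% of all tested probes (6.36% higher and 2.69% lower). Without day 12 replicate 1 the genes called at day 12 against day 1 numbered 4, and without day 12 replicate 2 they also numbered 4. Arrays of day 6 and day 1 did not overlap in 23.8% of the 42 genes and in 23.2% of all tested probes. Arrays of day 12 did not overlap those of day 1 in 52.4% of the genes (19 above and 3 below) and in 38.5% of probes (21.1% above and 17.4% below), and those of day 6 in 47.6% and 38.1%.

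The width of the error sets what can be said of the genes that did not pass. The 95% interval of the log2 difference between day 6 and day 1 lay between -1 and 1, a 2-fold change either way, for 42 of 42 genes. At day 12 against day 1 it did so for 35 of 42, and among the 7 exceptions were unc-75, mec-8, exc-7, asd-1, sap-49 and rsp-5. The median interval reached 0.34 to either side of the estimate in the first comparison and 0.38 in the second. Shifts near or below this size could thus be missed. These intervals are not adjusted for the number of probes, and a call asked for more. At day 12 against day 1 rsp-2, with a difference of 0.50, was not called (limma adjusted p = 0.0594). Over all 42 genes the median log2 difference was 0.08 at day 6 and 0.29 at day 12 against day 1. Over the 11117 brighter probes it was 0.11 and 0.14. The median of the 42 genes at day 6 was -0.03 after cyclic loess normalization, so it had no settled direction, and at day 12 it stayed between 0.22 and 0.27 under the 3 other scalings tried.

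**Figure D1:**
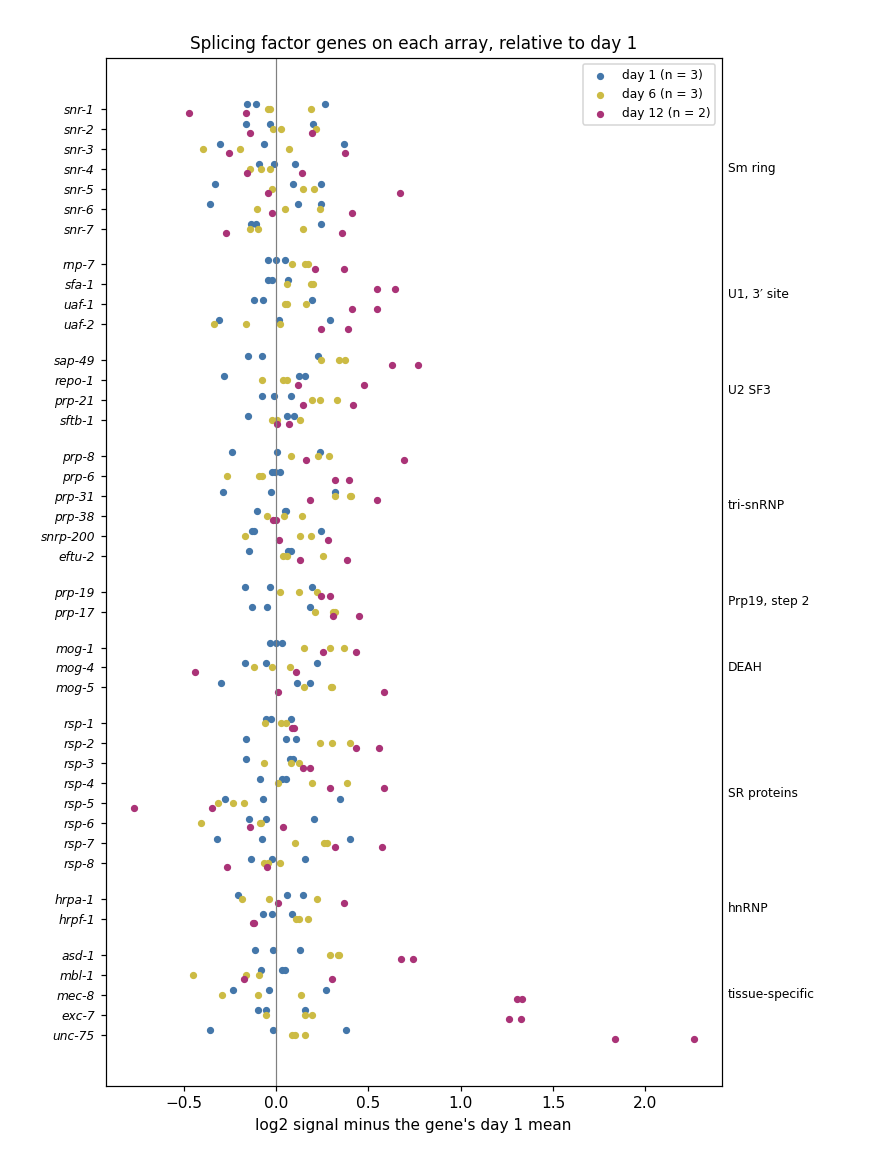
Log2 signal of 41 splicing factor genes on each of the 8 arrays, minus the gene's own day 1 mean, grouped by role; each point is 1 array, blue for day 1, yellow for day 6 and purple for day 12. Most points lie within 0.5 of the day 1 mean, while the day 12 arrays of mec-8, exc-7 and unc-75 stand more than 1 above it.

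The Sm proteins form the 7-membered ring that every spliceosomal snRNP of the Sm class is built on. Of the 7 Sm genes (snr-1 to snr-7), 0 rose and 0 fell in any of the 3 comparisons by limma, and none had an unadjusted p under 0.05. Their median log2 difference at day 12 against day 1 was 0.04, and -0.01 after cyclic loess normalization. The widest gap was in snr-1, the SmD3 gene, which read 9.49, 9.87 and 9.45 on the day 1 arrays, 9.79, 9.56 and 9.57 at day 6, and 9.13 and 9.44 at day 12. Its day 12 arrays lay just below every day 1 and day 6 array, with a log2 difference of -0.32 ± 0.18 (SE) from day 1 that was not called (limma adjusted p = 0.344). For snr-5, the SmF gene, the difference had the other sign, 0.31 ± 0.24, and its 2 day 12 arrays were spread widely (SD 0.50). The remaining Sm genes had differences from -0.01 for snr-4, the SmD2 gene, to 0.19 for snr-6, the SmE gene. The genes for SmB (snr-2), SmD1 (snr-3) and SmG (snr-7) lay between, at 0.03, 0.06 and 0.04.

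Genes for proteins that first mark the intron ends had higher day means at day 12 than at day 1 in 4 of 4 cases, and 1 of the 4 rose. That gene was sfa-1, which encodes the branch point binding protein SF1. It read 6.67, 6.78 and 6.70 at day 1, 6.78, 6.90 and 6.92 at day 6, and 7.36 and 7.26 at day 12. The day 12 arrays lay above all others, while those of days 1 and 6 touched. The rise was 1.51-fold, a log2 difference of 0.60 ± 0.14 (SE; limma adjusted p = 0.0179). With day 12 replicate 1 left out the adjusted p was 0.101 and with day 12 replicate 2 left out it was 0.0631, neither a call, and over its 18 alternatives the adjusted p ran from 0.00749 to 0.101. Its partner uaf-1, the large subunit of U2AF that reads the polypyrimidine tract, went from 7.76 ± 0.17 (SD, n = 3) at day 1 to 7.85 ± 0.06 (n = 3) at day 6 and 8.24 ± 0.10 (n = 2) at day 12. This log2 difference of 0.48 ± 0.16 was not called (adjusted p = 0.0741), and it was called without day 1 replicate 1 (0.043), the adjusted p under the intensity trend being 0.0323. The small U2AF subunit gene uaf-2, whose protein reads the 3′ splice site itself, differed by 0.32 ± 0.20 and was not called. For rnp-7, the U1-70K gene, the difference was 0.29 ± 0.14, and its arrays were ordered by day without overlap, at 7.72 to 7.82, 7.85 to 7.94 and 7.98 to 8.14.

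The SF3a and SF3b complexes hold the U2 snRNP at the branch point. Of their 4 genes, sap-49 rose, which encodes the SF3b subunit SF3B4. It read 7.82, 7.89 and 8.19 at day 1, 8.21, 8.34 and 8.31 at day 6, and 8.59 and 8.73 at day 12, so that the 3 days did not overlap. From day 1 to day 12 it rose 1.62-fold (log2 difference 0.70 ± 0.16, limma adjusted p = 0.0158). Without day 12 replicate 2 the call was lost (adjusted p = 0.115), the 18 alternatives running from 0.00352 to 0.115. The other 3 were not called: repo-1 (SF3A2) differed by 0.30 ± 0.19, prp-21 (SF3A1) by 0.28 ± 0.15, and sftb-1 (SF3B1), the SF3b protein that grips the branch point, by 0.04 ± 0.15. The day means of sftb-1 were 7.50, 7.54 and 7.53.

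The tri-snRNP carries the U4, U5 and U6 snRNAs into the spliceosome. Of its 6 genes, 0 rose and 0 fell by limma, with 1 higher and 0 lower at an unadjusted p under 0.05 at day 12 against day 1. The scaffold gene prp-8, whose protein lies at the catalytic core, had the largest difference, 0.43 ± 0.20. It read 9.44, 9.21 and 8.97 at day 1, 9.29, 9.43 and 9.49 at day 6, and 9.90 and 9.37 at day 12. The groups overlapped, and of the day 12 arrays only replicate 1 stood above the rest. For prp-6, which bridges U4/U6 and U5, the day 12 arrays (6.26 and 6.33) lay above the day 1 arrays (5.92 to 5.96), which lay above those of day 6 (5.67 to 5.86). Its log2 difference between day 12 and day 6 was 0.50 ± 0.14 and just missed the call (adjusted p = 0.0564), which was made after cyclic loess normalization (0.0478) and among the brighter probes alone (0.0232). The U4 protein gene prp-31 differed by 0.37 ± 0.20 from day 1 to day 12, the U5 GTPase gene eftu-2 by 0.26 ± 0.16, and the helicase gene snrp-200, whose product unwinds U4 from U6, by 0.15 ± 0.19. The prp-38 gene, needed to activate the assembled spliceosome, had day means of 8.46, 8.51 and 8.45.

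After activation, the Prp19 complex stabilises the catalytic centre and DEAH-box helicases drive its remodelling. Of these 5 genes, 0 rose and 0 fell in any comparison by limma, and at an unadjusted p under 0.05 there were 2 higher and 0 lower at day 12 against day 1. For prp-17, which acts around the second step, the arrays read 8.03, 8.12 and 8.35 at day 1, 8.47, 8.38 and 8.49 at day 6, and 8.62 and 8.47 at day 12. Its day 1 arrays lay below all others, and the log2 difference at day 12 was 0.38 ± 0.16 (adjusted p = 0.16). The ubiquitin ligase gene prp-19 differed by 0.27 ± 0.16. The helicase gene mog-1, the Prp16 homologue, read 7.59, 7.55 and 7.52 at day 1, 7.70, 7.92 and 7.84 at day 6, and 7.99 and 7.81 at day 12. Here too day 1 stood below the later days, by 0.34 ± 0.15 at day 12 (adjusted p = 0.182). The Prp2 homologue mog-4 differed by -0.16 ± 0.20 and the Prp22 homologue mog-5 by 0.30 ± 0.21, with SDs of 0.39 and 0.40 between the day 12 arrays. In C. elegans the 3 mog genes are known for the switch from sperm to oocytes in the hermaphrodite germline.

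Among the 26 genes of the core machinery as a whole, 2 rose (sfa-1 and sap-49) and 0 fell at day 12 against day 1, or 7.69%, beside 14.1% of all tested probes. Day 12 arrays were clear of day 1 arrays in 11 of the 26 (10 above and 1 below), or 42.3%, beside 38.5% of all tested probes, a share not counted over the brighter ones. The germline and oocyte markers come from a tissue that makes up much of an adult hermaphrodite. At day 12 against day 1 they had 1 higher and 2 lower of 24, or 12.5%, beside 14.1% of all tested probes. At day 12 against day 6, 0 were called higher and 2 lower, or 8.33%, beside 9.05% of all tested probes. Between these days 23 of the 24 markers had a negative difference and 1 a positive one. In 20 of them, or 83.3%, the day 12 arrays lay below those of day 6, and in 0 above, where 38.1% of all tested probes did not overlap. Their summed linear signal was 27184 to 29109 at day 1, 30969 to 31892 at day 6 and 22400 to 26345 at day 12, and none of the 24 was dim on every day. Their part in the core genes' levels was not tested.

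**Figure D2:**
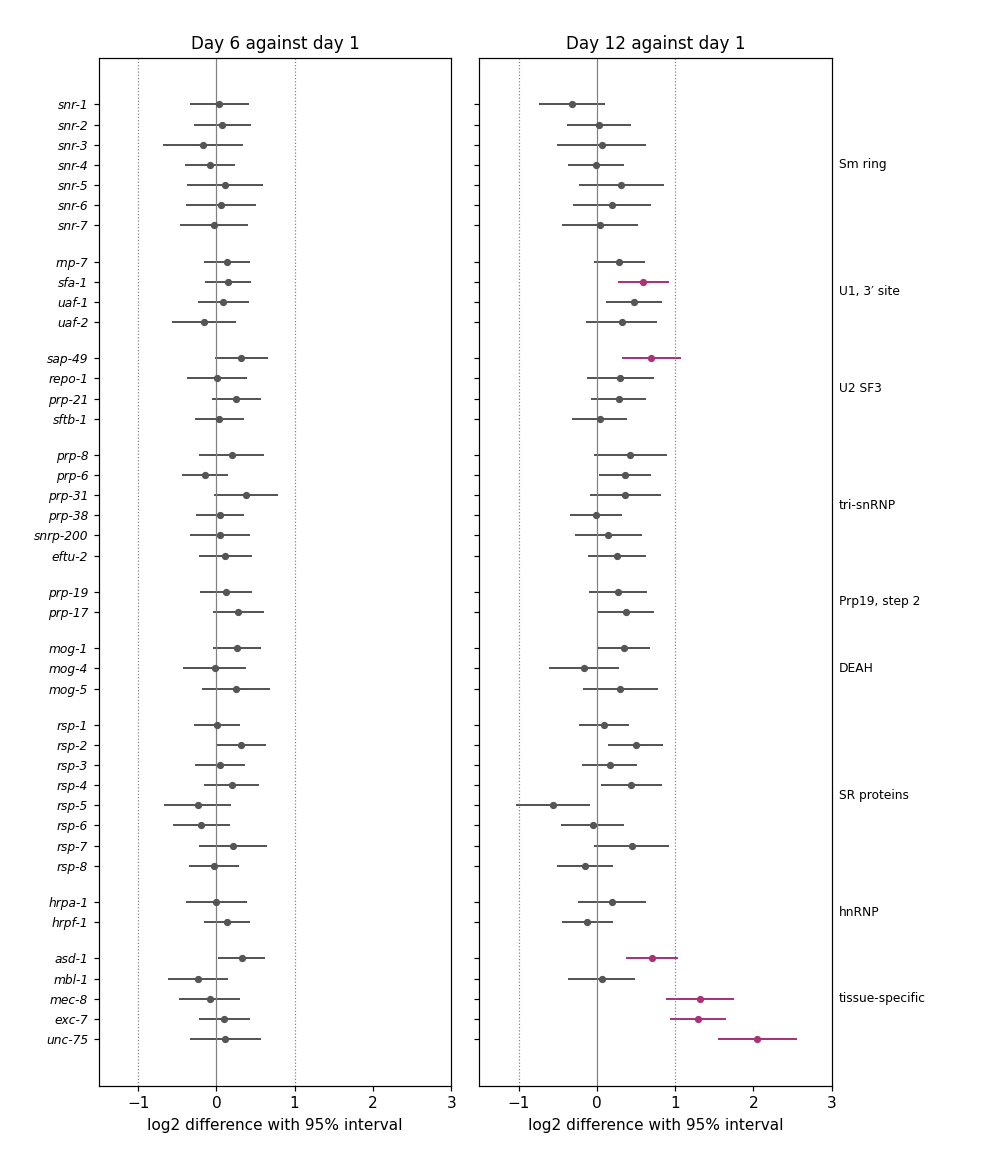
Log2 difference of 41 splicing factor genes with the 95% interval from the limma fit, day 6 minus day 1 on the left and day 12 minus day 1 on the right; purple marks an adjusted p under 0.05 and dotted lines a 2-fold change. On the left every interval lies between the dotted lines, and on the right 6 of 41 reach past one, 5 upwards and rsp-5 downwards.

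SR proteins carry arginine-serine repeats, bind exons and recruit the splicing machinery to nearby sites. Of the 8 rsp genes, 0 rose and 0 fell in the 3 comparisons by limma, and at an unadjusted p under 0.05 there were 2 higher and 1 lower at day 12 against day 1. They did not share a direction: 5 of 8 had a higher mean at day 12 than at day 1, and 3 a lower one. The largest difference was in rsp-5, which read 6.86, 7.48 and 7.06 at day 1, 6.82, 6.96 and 6.90 at day 6, and 6.36 and 6.78 at day 12. Its day 12 arrays lay below all others by a small margin. The log2 difference was -0.56 ± 0.21 (adjusted p = 0.116), and it was called after quantile normalization (0.0488). In the other direction rsp-2 went from 10.34 ± 0.14 (SD, n = 3) to 10.65 ± 0.08 (n = 3) and 10.83 ± 0.09 (n = 2), with no overlap between the days. Its difference of 0.50 ± 0.15 missed the call (adjusted p = 0.0594), and was called under the intensity trend (0.00621), after cyclic loess normalization (0.0475) and among brighter probes alone (0.0262). For rsp-4, the homologue of SRSF2 (SC35), the difference was 0.44 ± 0.17, and for rsp-7 it was 0.44 ± 0.21. That of rsp-7 was called without day 1 replicate 2 (adjusted p = 0.0491, against 0.233 with it), and that of rsp-4 under the intensity trend (0.0359). The homologue of SRSF1, rsp-3, needed for embryonic development in worms, had day means of 9.33, 9.37 and 9.49. The remaining day 12 differences were 0.09 for rsp-1, -0.05 for the SRSF3 homologue rsp-6 and -0.16 for rsp-8, a homologue of the splicing activator Tra2.

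Proteins of the hnRNP families coat new transcripts and often repress splice sites. The hnRNP A1 homologue hrpa-1, whose family often opposes SR proteins at exons, differed by 0.19 ± 0.19. The hnRNP F homologue hrpf-1 had day means of 7.60, 7.74 and 7.48 and a day 12 difference of -0.12 ± 0.14, neither gene being called.

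The tissue-specific regulators held the 3 largest differences among the 42 genes. Of the 5, 4 (asd-1, mec-8, exc-7 and unc-75), or 80%, rose from day 1 to day 12. The share was 14.1% over all tested probes and 31.4% over the brighter ones. Between day 6 and day 12 unc-75, mec-8 and exc-7 rose too, or 60%, beside 9.05% of all tested probes. Between day 1 and day 6, 0 of 5 were called by limma, with 1 higher and 0 lower at an unadjusted p under 0.05. The median log2 difference of the 5 at day 12 against day 1 was 1.29, beside 0.14 over the brighter probes, and it was 1.17 to 1.28 under the 3 other scalings.

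The CELF family gene unc-75, whose product controls splicing in neurons, read 3.29, 2.55 and 2.89 at day 1, 2.99, 3.06 and 3.01 at day 6, and 4.75 and 5.17 at day 12. The first 2 days were alike and close to the floor, and both day 12 arrays stood well above. From day 6 to day 12 it rose 3.83-fold (log2 difference 1.94 ± 0.22, limma adjusted p = 0.000337). Against day 1 the log2 difference was 2.05 ± 0.22 (adjusted p = 0.000133), with the day 1 mean of 2.91 in the dim range and the day 6 mean of 3.02 at its edge, so both differences are better read as lower bounds.

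The mec-8 gene encodes an RNA-binding protein needed for mechanosensory neurons and for splicing of the basement membrane gene unc-52 in the hypodermis. It read 5.19, 5.39 and 5.69 at day 1, 5.56, 5.13 and 5.33 at day 6, and 6.73 and 6.76 at day 12. Days 1 and 6 overlapped, and day 12 stood apart. The rise was 2.65-fold from day 6 (log2 difference 1.40 ± 0.19, adjusted p = 0.000963) and 2.50-fold from day 1 (1.32 ± 0.19, adjusted p = 0.000942).

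For exc-7, the worm member of the ELAV/Hu family, which acts in the excretory canal and in neurons, the arrays read 5.53, 5.79 and 5.58 at day 1, 5.79, 5.58 and 5.83 at day 6, and 6.96 and 6.89 at day 12. It rose 2.29-fold from day 6 (log2 difference 1.19 ± 0.16, adjusted p = 0.000797) and 2.45-fold from day 1 (1.29 ± 0.16, adjusted p = 0.000303). As with mec-8, days 1 and 6 overlapped. For unc-75, mec-8 and exc-7 the calls at day 12, against day 1 and against day 6, held in each of the 18 alternatives, with adjusted p of at most 0.0145.

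The RBFOX family gene asd-1, which together with fox-1 controls tissue-specific exons of the receptor gene egl-15, read 7.47, 7.56 and 7.71 at day 1, 7.92, 7.87 and 7.92 at day 6, and 8.32 and 8.26 at day 12. The 3 days were in order with no overlap. It rose 1.63-fold from day 1 to day 12 (log2 difference 0.71 ± 0.14, adjusted p = 0.00782), and the single intervals, with 0.32 ± 0.13 and 0.39 ± 0.14, were not called. Without day 12 replicate 1 the day 12 call was narrowly lost (adjusted p = 0.0524), the 18 alternatives running from 0.00178 to 0.0524. The muscleblind gene mbl-1, a regulator in neurons and muscle, was not called in any comparison. It read 7.63, 7.50 and 7.61 at day 1, 7.13, 7.49 and 7.42 at day 6, and 7.88 and 7.40 at day 12, with overlap between days 1 and 12 and the day 6 arrays just below those of day 1.

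**Figure D3:**
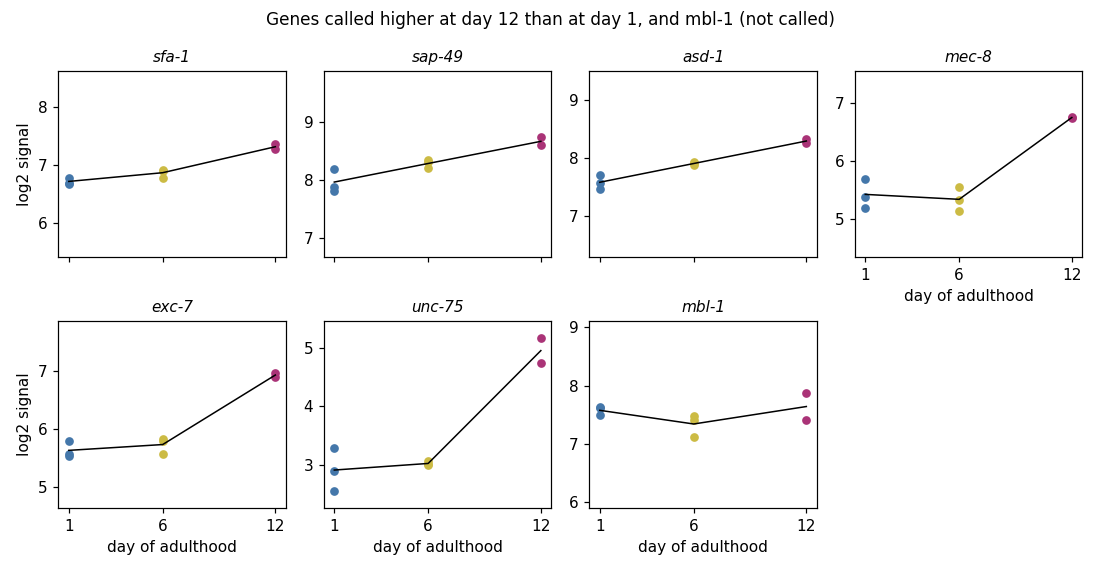
Log2 signal on each array against day of adulthood for 6 splicing factor genes called higher at day 12 than at day 1, and for mbl-1, which was not called; points are arrays, lines join day means, and each panel spans the same height. The lines of mec-8, exc-7 and unc-75 are flat to day 6 and rise after it, while those of asd-1 and sap-49 climb over both intervals.

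Whether a gene changed more after day 6 than before it was tested directly, as the change from day 6 to day 12 minus the change from day 1 to day 6, over intervals of 6 and 5 days. By this contrast 3 of the 42 genes were called, or 7.14%, against 3.46% of all tested probes (2.22% higher and 1.24% lower). The 3 were unc-75 with 1.82 ± 0.35 on the log2 scale (limma adjusted p = 0.0207), mec-8 with 1.49 ± 0.31 (0.0271) and exc-7 with 1.09 ± 0.25 (0.0454). Without day 6 replicate 2, day 6 replicate 3 or day 12 replicate 2, 0 of the 42 genes were called. With day 6 replicate 1 or day 12 replicate 1 left out, 1 gene was. For asd-1, sap-49 and sfa-1 the difference between the intervals ran from 0.06 to 0.30 and was not called.

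Neuron markers were read beside the tissue-specific regulators, since several of these act in neurons. Of 15 neuron markers, 2 rose from day 1 to day 12, or 13.3%, and 0 fell. The 2 were the synaptobrevin gene snb-1 (log2 difference 0.66 ± 0.14) and the syntaxin gene unc-64 (1.19 ± 0.21). In this comparison 14.1% of all tested probes were called (9.58% higher and 4.52% lower), and 31.4% of the brighter ones. The summed linear signal of the neuron markers was 1455 to 1718 at day 1, 1570 to 1661 at day 6 and 2116 to 2156 at day 12. The brightest marker, snb-1, carried the rise of this sum over day 1, since the other 14 summed to 500 to 639, 417 to 484 and 528 to 543. From day 6 to day 12 the sum of these others rose too. Between those days 14 of the 15 markers had a positive log2 difference and 1 a negative one, with a median of 0.28. By limma 2 of the 15 (unc-64 and ric-4), or 13.3%, were called higher and 0 lower, beside 9.05% of all tested probes. The median log2 difference of the 15 from day 1 was -0.29 at day 6 (10 of 15 negative, 0 called, 4 lower at an unadjusted p under 0.05). At day 12 it was 0.26 (11 of 15 positive and 4 negative). The synaptotagmin gene snt-1, the secretion gene unc-31 and the pan-neuronal marker rgef-1 were dim on every day. Of 16 embryo markers, 7 rose from day 1 to day 12 and 0 fell, or 43.8%. Their summed signals were 1177 to 1244, 1435 to 1589 and 1815 to 1889 at days 1, 6 and 12. At day 6, 3 of the 16 (tbx-8, ztf-11 and hch-1), or 18.8%, were already called higher, beside 3.85% of all tested probes called. Across the arrays of a day, the median log2 signal of this list was 2.71 to 2.98, 3.05 to 3.41 and 4.79 to 4.81. The widest rise was in hch-1, the hatching enzyme gene, from a day mean of 2.84 at day 1 to 7.84 at day 12 on the log2 scale, while end-1, end-3, med-1, med-2 and pes-1 were dim on every day. Of 15 muscle markers 13 fell and 0 rose, or 86.7%, with summed signals of 6979 to 8803, 1977 to 4001 and 1074 to 1221. Hypodermis markers, read beside mec-8, had 2 higher and 3 lower of 15, or 33.3%, the 3 lower being the collagen genes col-19, col-140 and col-119. Of the 15, 7 were dim on every day, among them dpy-7, one of the 2 called higher. Their summed signals were 3343 to 6594, 1218 to 3161 and 593 to 971. The median log2 signal of this list was 2.40 to 2.96, 3.62 to 4.38 and 2.83 to 2.99, so it did not fall in step with the sums. Of 14 intestine markers 9 fell and 1 rose, or 71.4%, with summed signals of 4691 to 5457, 2157 to 3166 and 1853 to 1855. The part of these tissues in the rise of the regulators was not tested.

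The other genes of the pathway were read from 3 more lists. Of 42 further core spliceosome genes, 2 rose and 1 fell at day 12 against day 1, with a median log2 difference of 0.16. That was 7.14%, beside 14.1% of all tested probes and 31.4% of the brighter ones. The SF3b gene phf-5 read 2.85, 3.20 and 3.14 at day 1, 2.92 ± 0.11 (SD, n = 3) at day 6, and 4.41 and 5.50 at day 12, so it left the floor only at day 12 and its 2 arrays there differed widely. Its log2 difference was 1.89 ± 0.27 from day 1 (adjusted p = 0.000972). Without day 12 replicate 1 and without day 12 replicate 2 it was still called. The tri-snRNP gene prp-3 rose by a log2 difference of 0.65 ± 0.18 (adjusted p = 0.0332), from 7.66, 8.02 and 7.73 to 8.45 on each of the 2 day 12 arrays. The lsm-8 gene, of the ring that binds U6 snRNA, fell by 0.60 on the log2 scale (SE 0.15, adjusted p = 0.0211), from 9.27, 9.49 and 9.45 to 8.72 and 8.88. Without any one of several arrays the calls of prp-3 (day 1 replicates 1 and 3, day 6 replicate 2 and both day 12 arrays) and lsm-8 (day 1 replicates 2 and 3 and both day 12 arrays) were lost, with adjusted p from 0.0513 to 0.141.

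Of 17 further splicing regulators, 2 rose and 0 fell at day 12 against day 1, or 11.8%, beside 14.1% of all tested probes. Their median log2 difference was 0.12. The other 15 were not called, among them sym-2 (0.51), tiar-2 (0.50), ptb-1 (0.24), sup-12 (0.16), etr-1 (0.12), msi-1 (0.01) and rbm-5 (-0.42). From day 6 to day 12, sym-2 differed by 0.80 ± 0.23 and sup-12 by 0.64 ± 0.23, neither called (limma adjusted p = 0.0583 and 0.138). In that comparison 10 of the 17 differences were positive and 7 negative. The share called in this list was lower than among the 5 tissue-specific regulators, but the list was not limited to tissue-specific genes. The RBFOX gene fox-1, partner of asd-1, read 3.66, 3.60 and 3.56 at day 1, 4.06, 4.14 and 4.16 at day 6, and 5.46 and 4.78 at day 12. Its days did not overlap, and it rose 2.85-fold from day 1 to day 12 (log2 difference 1.51 ± 0.20, adjusted p = 0.000469), and from day 6 by a log2 difference of 1.00 ± 0.20 (adjusted p = 0.00908). The call against day 6 was lost without day 12 replicate 1, where the log2 difference was 0.66 (adjusted p = 0.0625). The STAR family gene asd-2 rose by a log2 difference of 0.53 ± 0.15 (adjusted p = 0.0388), a call that was lost in 14 of 18 alternatives, among them each of the 8 fits with 1 array left out. Of 9 smg genes, which degrade messages with premature stop codons and so clear many faulty splice products, 0 rose and 0 fell by limma in the 3 comparisons. At an unadjusted p under 0.05, 1 was higher and 0 were lower at day 12 against day 1, and the largest differences were 0.46 ± 0.16 for smg-3 and 0.37 ± 0.22 for smg-7.

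**Figure D4:**
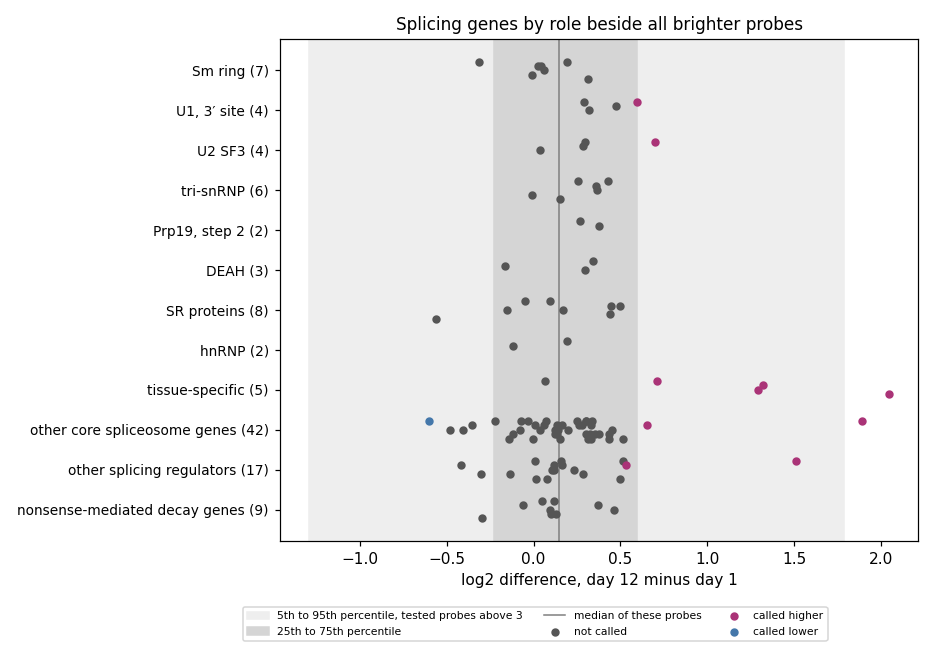
Log2 difference between day 12 and day 1 for splicing genes by role, with the number of genes in brackets; points are genes, purple called higher and blue called lower, and the grey bands span percentiles 25 to 75 and 5 to 95 of the 11117 brighter probes, with a line at their median of 0.14. Core, SR and smg genes lie mainly within the darker band. The called tissue-specific regulators lie to its right, asd-1, exc-7 and mec-8 still within the lighter band and unc-75 past it.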

How the data were processed

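The deposited values are log2 signals of 29317 probes on 8 arrays, from the authors. The software and normalization were not given in the sources used here, and base 2 was inferred from the range (0.68 to 13.23). A probe table gave 26281 probes 1 gene symbol, 480 several and 2556 none; the 26761 with a symbol were tested. A gene was its brightest probe of exactly 1 symbol. Limma 3.58.1 in R 4.3.3 fitted a mean per day to all 8 arrays (lmFit and eBayes, two-sided), and a call is an adjusted p under 0.05 after Benjamini-Hochberg correction across these probes. Residual degrees of freedom were 5, with 5.07 from the prior. The fit was tested on simulated data. Alternatives were other scalings, an intensity trend, array weights, other probe sets, fewer arrays and a replicate block. The splicing factor genes, the other lists and the roles were chosen with earlier results of these data known. Array values are given for called genes and, in role groups with fewer than 2, for the largest day 12 difference, and beyond that list others were added after their values were seen. From other lists, up to 6 called genes are named, or the 2 with the largest difference. Some further regulators that were not called were added after their values were seen. One of the 42 genes is counted but not reported here by name or value. No sequences were used. Precision is limited by the 8 arrays. Of listed pathway genes mog-6 and tiar-3, and of intestine markers opt-2, were not matched.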

Additional observations from a re-analysis of the deposited data

Results flagged for a closer look

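In 3 splicing factor genes, and in 1 further core gene, the change after day 6 differed from the change before it by the test of that difference. On the log2 scale the later change exceeded the earlier one by 1.82 in unc-75, 1.49 in mec-8, 1.09 in exc-7 and 2.18 in phf-5 (limma adjusted p = 0.0207, 0.0271, 0.0454 and 0.0246). The adjusted p rose to 0.0916, 0.119, 0.185 and 0.0984 in the least favourable of the 17 alternatives. Before day 12 unc-75 (day means 2.91 and 3.02) and phf-5 (3.06 and 2.92) were close to the floor, so their earlier change was hardly measurable and their later change is better read as a lower bound. Both day 12 arrays were above all earlier arrays in each of the 4 genes. Groups of 2 or 3 arrays were too small to look for single outlying arrays.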

How the results depend on the processing

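The count of splicing factor genes called at day 12 against day 1 ran from 4 to 8 with 1 array left out, that at day 12 against day 6 stayed at 3, and that at day 6 against day 1 stayed at 0. The difference between the intervals gave 0 to 2 with 1 array left out. Among probes above 3 alone, 5 splicing factor genes were called at day 12 against day 6, beside 2789 of all 11117 such probes. At day 12 against day 1, 3909 of all 26761 tested probes were called with the intensity trend, and 4171 of the 11117 probes above 3 alone. Further core genes called at day 12 against day 1 (3) were 6 with the intensity trend, 6 among probes above 3, 1 with the arrays of the 2 days only, and 1 to 3 with 1 array left out. Further regulators at day 12 against day 1 (2) were 1 with the trend, quantile or cyclic loess normalization, arrays of the 2 days only or array weights, and 1 to 2 with 1 array left out. At day 12 against day 6 (1) they were 2 with median centring, probes above 3, arrays of the 2 days only or array weights, and 0 to 2 with 1 array left out. Of the smg genes, 1 was called at day 12 against day 1 among probes above 3, beside 4171 of all 11117 such probes. The cause of these moves was not tested, and no call changed its direction. A left-out day 12 array leaves 1, assumed to vary like the other days.

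Replicate numbers did not pair the arrays: deviations of same-numbered arrays correlated at -0.114 to 0.112, and others at -0.112 to 0.106. With the replicate block, 6 splicing factor genes were called at day 12 against day 1, 3 at day 12 against day 6 and 1 for the difference between intervals, and at day 12 against day 1 the block gave 1 further core gene and 1 further regulator.

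Scaling moved the balance of all tested probes. At day 6 against day 1, 584 were called higher and 445 lower, against 501 and 520 after quantile and 427 and 579 after cyclic loess normalization. At day 12 against day 1 the 2564 higher and 1209 lower became 2048 and 1543 after quantile normalization. The median of brighter probes in that comparison went from 0.14 to 0.03 after quantile and 0.04 after cyclic loess normalization. Counts over all probes at day 6 against day 1 were 1029, and 281 to 937 with 1 array left out. Those for day 12 against day 1 were 3773, and 2454 without day 12 replicate 2. For day 12 against day 6 they were 2423, and 1371 without day 12 replicate 2. For the difference between intervals they were 927, and 431 without day 6 replicate 3.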
